A study of Caenorhabditis elegans with 2 samples.

Results

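The 38 genes described here encode neuronal identity transcription factors of the nematode Caenorhabditis elegans and the corepressor unc-37. They form a list of named genes, taken as given, and were matched by symbol among the 19973 protein-coding genes of the nuclear genome, with 26 of them on autosomes and 12 on the X chromosome. They were set against peak lists from chromatin immunoprecipitation sequencing (ChIP-seq) of MLS-2, which belongs to the HMX (NKX5) class of homeodomain proteins and is known for roles in mesoderm, glia and neurons. The question for each gene was whether the summit of a peak, its highest point, lay in the promoter window, within 5 kb of a 5′ end or in the gene body. As its promoter window, every protein-coding transcript of a gene had the 1000 bp before its 5′ end and the first 100 bp after it.

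Both samples came from strain OP645, whose worms carry the allele unc-119(tm4063) III and the transgene wgIs645, and make MLS-2 with a GFP-FLAG tag at its C-terminal end. Embryos of mixed stage and of both sexes were collected 2 h after the eggs had been bleached to synchronize them, and an anti-GFP antibody was used. The 2 samples were biological replicates of 1 group, so there was no other condition to compare with. Whole embryos of 1 transgenic line were used, the promoter that drives the transgene is not given in the sources used here, and the experiment named as a possible control was not analysed here. In whole embryos, binding in few cells and weak binding in many cannot be told apart, and peak lists hold no marker expression against which the sample's cells could be checked. The authors' list of optimal peaks held 1925 peaks in ce11, which were also the strongest 1925 of a pooled list of 30000 regions, and each replicate had a list of 30000 regions of its own. Each peak carries a signal, the authors' own peak score on a scale that is not stated, used here to rank peaks within a list, with rank 1 the strongest. The depth of the libraries is unknown. Shares have 95% exact binomial (Clopper-Pearson) intervals, which cover counting error only and treat genes as independent.

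Neuronal identity factors act in steps. Proneural basic helix-loop-helix factors commit a cell to a neuronal fate, and terminal selectors, often homeodomain proteins working in pairs, then switch on the receptors, channels and transmitter enzymes of 1 neuron type and hold them on through life. Known pairs in the worm include unc-86 with mec-3 in touch receptor neurons and ttx-3 with ceh-10 in the AIY interneuron. The homeodomain factor unc-4 works in motor neurons with a corepressor, unc-37, to keep genes off. In the same worms, cog-1 and die-1 act on opposite sides of the switch between the left and right ASE taste neurons.

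The sequences of 6 of the strongest summits show what the peaks lay on. Each is 101 bases centred on the summit, read 5′ to 3′ on the plus strand of the RefSeq copy of WBcel235, which is ce11. Capitals mark bases of an annotated tRNA gene for ets-5 and lin-32, a simple repeat for die-1 and ast-1, and matches to the motifs searched for egl-46 and ttx-1.
ets-5, chrX:5085553-5085653: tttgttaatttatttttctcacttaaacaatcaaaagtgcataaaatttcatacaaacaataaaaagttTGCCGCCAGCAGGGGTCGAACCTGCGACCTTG
lin-32, chrX:2227169-2227269: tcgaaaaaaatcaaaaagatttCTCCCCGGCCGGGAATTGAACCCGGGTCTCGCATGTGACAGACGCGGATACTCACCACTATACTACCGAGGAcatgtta
die-1, chrII:10065533-10065633: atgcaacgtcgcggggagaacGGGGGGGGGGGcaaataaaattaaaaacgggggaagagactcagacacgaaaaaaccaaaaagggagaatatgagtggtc
egl-46, chrV:6684691-6684791: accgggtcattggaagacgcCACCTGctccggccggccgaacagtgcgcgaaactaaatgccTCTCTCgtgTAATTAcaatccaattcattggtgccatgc
ttx-1, chrV:20061661-20061761: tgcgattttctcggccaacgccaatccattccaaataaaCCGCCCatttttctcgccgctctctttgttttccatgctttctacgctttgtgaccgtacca
ast-1, chrII:4130230-4130330: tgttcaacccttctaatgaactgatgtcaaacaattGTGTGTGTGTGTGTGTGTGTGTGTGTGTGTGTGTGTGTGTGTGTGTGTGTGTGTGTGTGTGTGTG

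Of the 38 genes, 11 had an optimal summit within 5 kb of a 5′ end: unc-37, ast-1, egl-44, hlh-3, die-1, vab-7, zag-1, egl-46, ttx-1, lin-32 and ets-5. That is a share of 28.9% (interval 15.4 to 45.9), against 16.8% of all protein-coding genes. In the promoter window 4 genes had one (unc-37, egl-44, zag-1 and ttx-1), a share of 10.5% (interval 2.94 to 24.8) against 5.64% of all genes. In the gene body 6 had one (ast-1, egl-44, die-1, vab-7, zag-1 and ttx-1), a share of 15.8% (interval 6.02 to 31.3) against 2.70% of all genes. No set test was run, since the genes were listed with results of these data known. The intervals give counting error alone. They take no account of gene length, which is given further on, or of the number of 5′ ends per gene. Counting each summit only for the protein-coding gene with the nearest 5′ end, 10 of the 38 genes had one within 5 kb, against 7.63% of all genes.

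**Figure D1:**
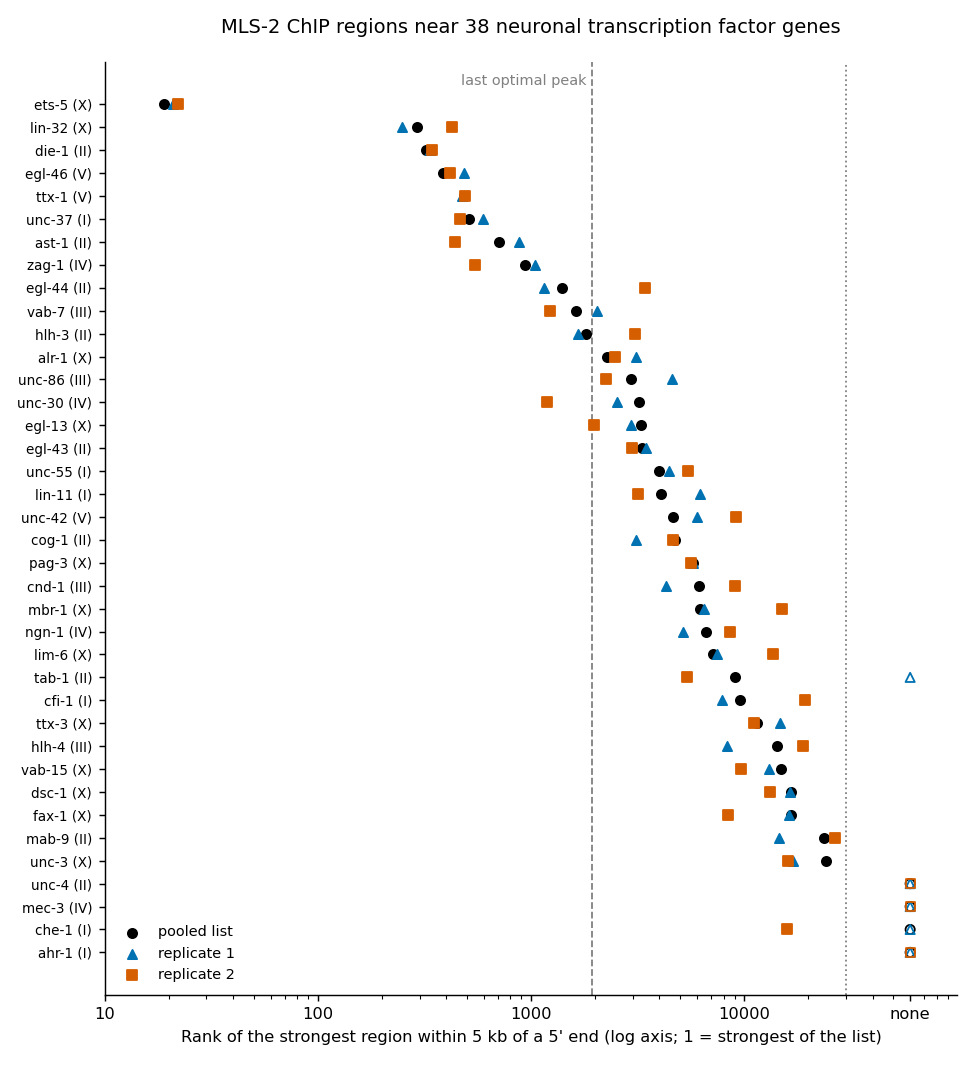
Rank of the strongest region within 5 kb of a 5′ end of each of the 38 genes (log axis, 1 is the strongest of its list) in the pooled list (circles), replicate 1 (triangles) and replicate 2 (squares), with the chromosome beside the gene. The dashed line is the last of the 1925 optimal peaks, the dotted line the last of the 30000 regions of a list, and open symbols stand for genes with no region. In the pooled list 11 genes lie left of the dashed line, with ets-5 at rank 19, and 4 have no region.

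Among factors for sensory neurons, 6 of 13 genes had an optimal summit within 5 kb, 2 of them in the promoter window and 4 in the gene body. The shares of all genes were 16.8%, 5.64% and 2.70%, and the grouping by neuron type used here was added after the values were seen. The strongest summit beside any of the 38 genes was at ets-5, an ETS factor gene of the BAG gas-sensing neurons (chrX:5085306-5085881). Its signal was 1262 in the pooled list (rank 19), 799 in replicate 1 (rank 21) and 460 in replicate 2 (rank 22), so both replicates placed it among their strongest regions. The summit lay 1077 bp upstream of the ets-5 5′ end and 19 bp from the tRNA-Ile gene C42D8.t1 (chrX:5085622-5085695, minus strand), which has 18 identical copies elsewhere in the genome. Reads that lie wholly within identical copies cannot be told apart. The peak reached beyond the tRNA gene on both sides, and the part of that gene in this peak was not tested.

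The zinc finger gene die-1, needed for the left ASE taste neuron, had a summit in an intron (chrII:10065348-10065817). The signal was 471 in the pooled list (rank 322), 309 in replicate 1 (rank 335) and 163 in replicate 2 (rank 344). This summit was 1102 bp upstream of an internal 5′ end and 2334 bp into the gene from the outermost one, just outside the promoter window. The sequence printed above has a run of 11 G within 50 bp of the summit. Runs of at least 10 G or C lay that close to 1 of the 14 summits at these genes and to 50 of all 1925 optimal summits (2.60%).

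The partners egl-46 and egl-44 both carried peaks. They encode an INSM-type zinc finger protein and a TEA-domain (TEAD family) protein that act together in the FLP neuron, where they keep the touch receptor fate off. The egl-46 summit (chrV:6684695-6684812) was 3168 bp upstream, with a signal of 436 in the pooled list (rank 386), 267 in replicate 1 (rank 483) and 152 in replicate 2 (rank 418). The egl-44 summit (chrII:5933081-5933550) had a signal of 245 in the pooled list (rank 1401), 182 in replicate 1 (rank 1146) and 64.3 in replicate 2 (rank 3424). The egl-46 peak thus stood among the strongest 1925 regions of both replicates, and the egl-44 peak among those of replicate 1 alone. The egl-44 summit was 170 bp upstream of an internal 5′ end, in an intron 4514 bp from the outermost one.

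The thermosensory gene ttx-1, an OTX-type homeodomain factor of the AFD neuron, had a summit at chrV:20061476-20061945. Its signal was 394 in the pooled list (rank 483), 269 in replicate 1 (rank 476) and 139 in replicate 2 (rank 491), nearly the same rank in each list. It lay in an intron, 291 bp upstream of an internal 5′ end and 2465 bp from the outermost one.

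The ETS gene ast-1, a terminal selector of dopaminergic neurons, had a pair of intronic summits, 4875 and 5079 bp downstream of its 5′ end. The summit nearer to the 5′ end (chrII:4130396-4130543) had a signal of 332 in the pooled list (rank 707), 206 in replicate 1 (rank 882) and 148 in replicate 2 (rank 440). The farther one (chrII:4130045-4130514) had a signal of 387 in the pooled list (rank 493) and 250 in replicate 1 (rank 544), with no region of replicate 2 within 100 bp. The farther summit lay inside a GT repeat of 198 bp (chrII:4130266-4130463), whose start is in the sequence printed above. The nearer summit lay just outside that repeat. A GT or AC repeat of at least 20 bp was within 50 bp of 2 of the 14 summits, both at ast-1, against 20 of 1925 optimal summits (1.04%). How such a repeat affects the mapping of reads there was not tested.

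The other sensory factors, unc-86, mec-3, alr-1, vab-15, che-1, cog-1 and egl-13, had no optimal summit within 5 kb. Their strongest pooled regions came closest to the optimal list at alr-1, an Aristaless-type gene of touch neurons (rank 2261, signal 197), and at unc-86, a POU homeodomain selector of many neuron types (rank 2935, signal 177). The SOX gene egl-13 of the BAG and URX neurons followed at rank 3271, the NKX6 gene cog-1 at rank 4712 and the MSX gene vab-15 at rank 14813. No pooled region lay within 5 kb of mec-3, the LIM homeodomain partner of unc-86, or of che-1, the zinc finger selector of the ASE neurons, although replicate 2 alone had a region near che-1 at rank 15840.

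Of the 7 genes grouped here with motor neurons, 2 had an optimal summit within 5 kb, against 16.8% of all genes. Of the transcription factors in this group, vab-7 alone had one. The first of the 2 is unc-37, the Groucho-type corepressor, grouped here as the partner of unc-4. It had summits 285 and 1363 bp upstream of its only 5′ end. The upstream distance to the next protein-coding gene was 661 bp, so the farther summit lay beyond that space. The nearest protein-coding 5′ end to both summits was still that of unc-37. The nearer peak (chrI:6745379-6745848) had a signal of 382 in the pooled list (rank 512), 240 in replicate 1 (rank 596) and 143 in replicate 2 (rank 464). The farther peak (chrI:6746457-6746926) had a signal of 273 in the pooled list (rank 1110), 172 in replicate 1 (rank 1308) and 63.1 in replicate 2 (rank 3603). The nearer summit was thus strong in both replicates, and the farther one was past the strongest 1925 regions of replicate 2.

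The second is vab-7, an Even-skipped homolog needed in the DB motor neurons, with an intronic summit 2371 bp downstream of the 5′ end (chrIII:10922480-10922949). It was a weak peak, with a signal of 231 in the pooled list (rank 1625), 142 in replicate 1 (rank 2042) and 94.8 in replicate 2 (rank 1232). The GABA neuron selector unc-30, a PITX-type homeodomain gene, had no optimal summit nearer than 82686 bp. The strongest region in the promoter windows of unc-30 ranked 3201 in the pooled list, 7363 in replicate 1 and 1183 in replicate 2. Each list was read by itself, so these need not be the same region. Replicate 1 had a stronger region within 5 kb of unc-30, at rank 2536 (signal 130). The nuclear receptor gene unc-55 of the VD motor neurons had its strongest pooled region at rank 3983. For the T-box gene mab-9 that rank was 23775, and for unc-3, the COE selector of cholinergic motor neurons, 24071. No pooled region lay within 5 kb of a 5′ end of unc-4, the homeodomain partner of unc-37, its nearest optimal summit being 84785 bp away.

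Among the 5 basic helix-loop-helix genes, lin-32 and hlh-3 had an optimal summit within 5 kb, against 16.8% of all genes. None had one in the promoter window or the gene body, against 5.64% and 2.70% of all genes, and a count of 0 among 5 genes is near those shares. The Atonal homolog lin-32, a proneural factor, had a summit 2903 bp downstream of its 5′ end, beyond the end of the gene (chrX:2227148-2227359). The signal was 493 in the pooled list (rank 291), 246 in replicate 1 (rank 567) and 150 in replicate 2 (rank 425). The replicate 1 value is of the region matched within 100 bp. Its strongest region within 5 kb of lin-32 had a signal of 351 (rank 249). The optimal summit fell inside the tRNA-Asp gene T14F9.t1 (chrX:2227191-2227262, minus strand), which has 20 identical copies elsewhere. The 72 bases of that gene are the capitals in the sequence printed above.

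The achaete-scute homolog hlh-3, which acts in the HSN motor neuron, had a summit 3107 bp downstream of its 5′ end (chrII:9089480-9089949) at the noncoding RNA gene C07H4.3. The nearest protein-coding 5′ end there belonged to C07H4.1, 2417 bp away. The signal was 220 in the pooled list (rank 1807) and 66.8 in replicate 2 (rank 3075), and replicate 1 had no summit within 100 bp. Its strongest region within 5 kb of hlh-3 had a signal of 156 (rank 1652). This was the weakest of the 14 summits. The NeuroD homolog cnd-1, the neurogenin homolog ngn-1 and hlh-4, which acts in the ADL neuron, had pooled regions at ranks 6101, 6614 and 14188 at best.

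The last 13 genes act in interneurons or in several neuron types, and 1 of them, zag-1, had an optimal summit within 5 kb, against 16.8% of all genes. This ZEB-type zinc finger homeodomain gene had one 942 bp upstream (chrIV:3854666-3855135), at the noncoding RNA genes F28F9.10 and F28F9.16. Its signal was 294 in the pooled list (rank 940), 191 in replicate 1 (rank 1039) and 111 in replicate 2 (rank 837). Another lay in an intron 4700 bp downstream (chrIV:3860308-3860777), where the nearest protein-coding 5′ end was that of aat-8, 4501 bp away. That peak had a signal of 257 in the pooled list (rank 1257), 126 in replicate 1 (rank 2718) and 133 in replicate 2 (rank 544). The upstream peak was in the strongest 1925 regions of both replicates, and the intronic one in those of replicate 2 alone.

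For the other 12 the strongest pooled regions spread from rank 3328 at egl-43, an EVI1-type zinc finger gene, to 16626 at fax-1, a nuclear receptor gene, with none within 5 kb of a 5′ end of ahr-1, the aryl hydrocarbon receptor homolog. The LIM homeodomain genes lin-11, lim-6 and ttx-3, the last of these the AIY selector, had ranks of 4073, 7107 and 11436. The paired-like gene unc-42 had rank 4607, the GFI1-like gene pag-3 had 5742 and mbr-1 had 6201. The BSX-type homeodomain gene tab-1 had rank 9000, the ARID gene cfi-1 had 9527 and the paired-like gene dsc-1 had 16583. Over all 27 genes without an optimal summit within 5 kb, the nearest one was 6084 to 84785 bp away (median 22303 bp). Of these, 23 had a pooled region within 5 kb, with best ranks of 2261 to 24071 (median 6201), and 9 of them ranked in the first 5000. In the whole pooled list 34 of the 38 genes had a region within 5 kb (89.5%, interval 75.2 to 97.1), against 67.1% of all genes. A region lay in the promoter window of 20 of them (52.6%, interval 35.8 to 69.0), against 33.3% of all genes. These regions include background, as the authors' file descriptions call the list peaks and background.

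**Figure D2:**
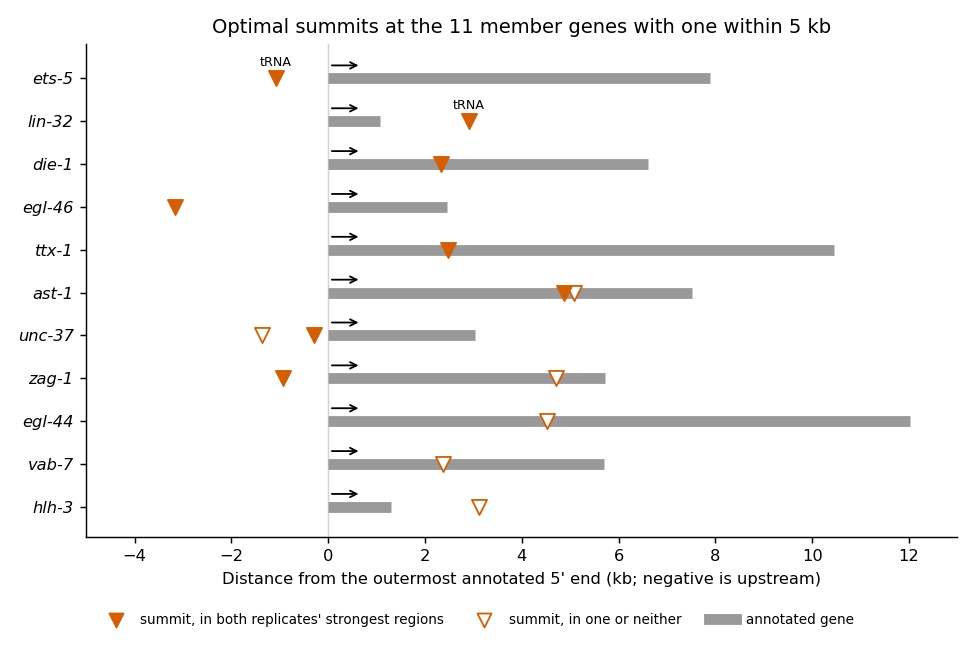
Position of the 14 optimal summits at the 11 genes that had one within 5 kb of a 5′ end, in kb from the outermost annotated 5′ end, with each gene (grey bar) drawn to the right from its start. Filled triangles are the 8 summits found within 100 bp in the strongest 1925 regions of both replicates, open triangles the other 6, and the word tRNA marks the summits within 200 bp of a tRNA gene. Of the 4 promoter summits, those of ttx-1 and egl-44 sit inside the gene at an internal 5′ end.

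The place of the summits within the genes varied. Of the 14 summits at these 11 genes, 7 lay in introns and 7 outside the gene. None was in an exon of the gene it was counted for. Exons of other genes were not examined. The summits at lin-32, at hlh-3 and upstream of zag-1 lay within noncoding RNA genes. Of the 4 genes with a promoter summit, unc-37 and zag-1 had it upstream of the outermost 5′ end, and egl-44 and ttx-1 had it upstream of an internal one. With the outermost 5′ end of each gene alone, 2 of the 38 genes had a promoter summit. That share of 5.26% (interval 0.644 to 17.7) is near the 5.10% of all genes. This alternative was chosen after the values were seen. No promoter summit of these 4 genes lay in the window of another protein-coding gene. Pooled signals at the 14 summits had a median of 357 (220 to 1262), against a median of 290 (212 to 2651) over all optimal peaks. A width of 470 bp was shared by 10 of the 14 peaks and by 1372 of the 1925.

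On autosomes 9 of 26 genes (34.6%, interval 17.2 to 55.7) had an optimal summit within 5 kb, against 15.9% of all autosomal genes. On X there were 2 of 12 (16.7%, interval 2.09 to 48.4), against 22.9% of all genes on X. Promoter summits were found at 4 of 26 autosomal genes (15.4%, interval 4.36 to 34.9), against 5.27% of all autosomal genes, and at 0 of 12 genes on X, which allows a share of up to 26.5%, against 7.95% of all genes on X. Gene-body summits were found at 6 of 26 autosomal genes (23.1%, interval 8.97 to 43.6), against 2.48% of all, and at 0 of 12 on X, against 4.14% of all. In these windows of the optimal list the X values stood below and the autosomal values above those of all genes. The intervals for 12 genes were wide, and the difference was not tested. Other counts on X stood above those of all genes there. In the pooled list 12 of 12 genes on X had a region within 5 kb, against 67.5%. In the promoter window 5 of 12 had a pooled region (41.7%), against 34.4%. Counting each optimal summit only for the nearest 5′ end gave 2 of 12 (16.7%), against 13.6%.

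Both summits on X were at tRNA genes, those near ets-5 and lin-32. Without the summits within 200 bp of a tRNA, snoRNA, snRNA or miRNA gene, 9 of the 38 genes had one within 5 kb, against 14.5% of all genes. They were the same 9 of 26 autosomal genes, against 13.8% of all autosomal genes, and 0 of 12 on X, against 19.3% of all genes on X. A small RNA gene of these kinds lay within 5 kb of a 5′ end for 2 of the 12 genes on X, against 15.3% of all genes on X, and for 1 of the 26 on autosomes, against 9.76% of all autosomal genes.

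**Figure D3:**
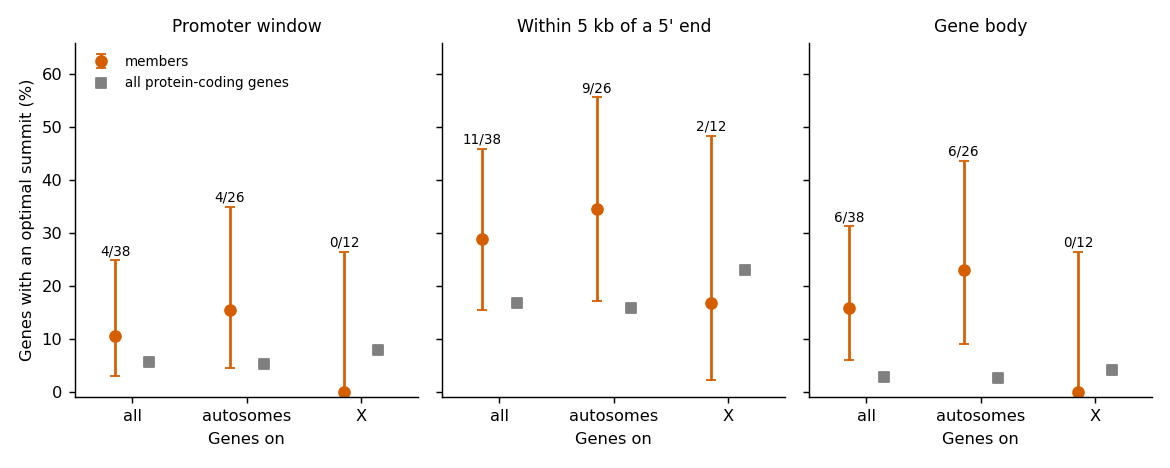
Share of genes with an optimal summit (%) in the promoter window, within 5 kb of a 5′ end and in the gene body, for the 38 neuronal identity genes (circles, called members, with 95% exact binomial intervals and counts) and for all protein-coding genes (squares), over all chromosomes, autosomes and X. The autosomal circles stand at 15.4%, 34.6% and 23.1%, and the X circles at 0%, 16.7% and 0%.

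The replicates placed the same genes in most cases. Of the 14 summits, 11 were within 100 bp of a summit in the strongest 1925 regions of replicate 1, 10 in those of replicate 2 and 8 in both (57.1%), against 1221 of all 1925 optimal peaks in both (63.4%). Taking replicate 1 by itself, 10 of the 38 genes had a summit within 5 kb, against 16.9% of all genes, and vab-7 was the gene not found. Taking replicate 2 by itself the count was also 10, against 16.6% of all genes, with egl-44 and hlh-3 not found and unc-30 added. Promoter summits numbered 4 in replicate 1, against 5.69% of all genes, at the same 4 genes as in the optimal list. They numbered 4 in replicate 2, against 5.24%, with unc-30 in place of egl-44. For the gene body, replicate 1 by itself lacked vab-7, and replicate 2 by itself lacked egl-44 and added unc-30 and ets-5, so that 1 of the 12 genes on X then had a summit there. The optimal list is built from the same replicates pooled, so it is not independent of either.

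**Figure D4:**
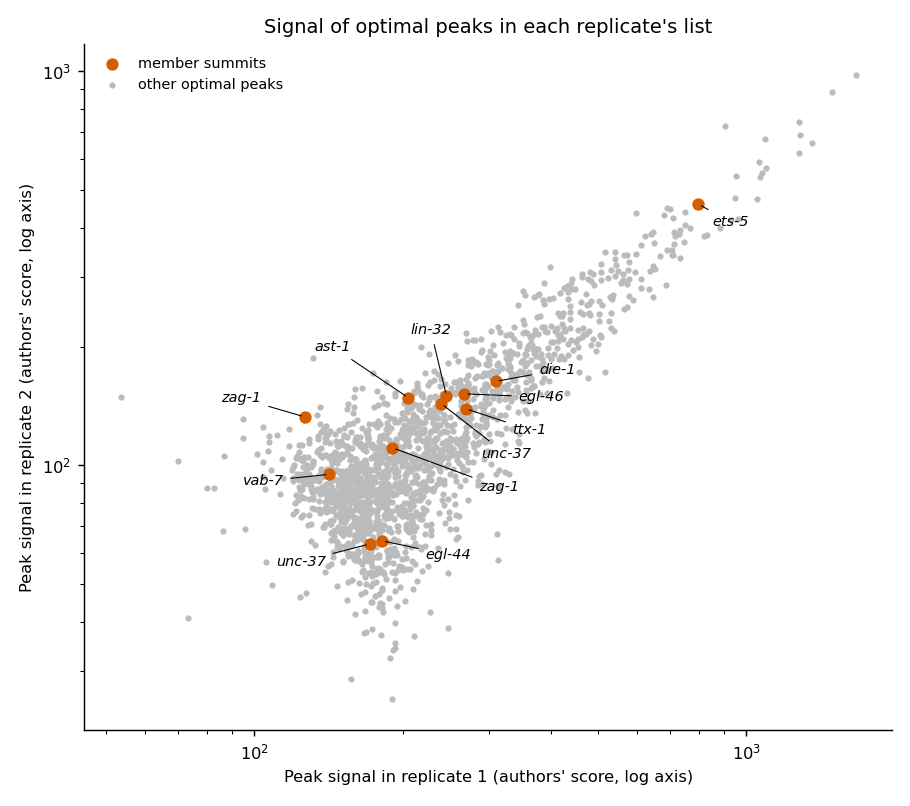
Signal of optimal peaks in the list of replicate 1 (horizontal) and of replicate 2 (vertical), both the authors' peak score on log axes, for peaks with a summit within 100 bp in both lists. Orange points are the 12 summits at the neuronal identity genes and grey points the other optimal peaks. The ets-5 peak stands apart at 799 and 460, and the egl-44 peak and the farther unc-37 peak have the lowest replicate 2 signals of the 12, at 64.3 and 63.1.

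The genes themselves were long and stood in open stretches of the genome. Gene length had a median of 4880 bp (1068 to 12029), against 2027 bp over all protein-coding genes, and 34 of the 38 were above that value. The upstream distance to the next protein-coding gene had a median of 4217 bp, against 936 bp, and 35 of 38 were above that value. The nearest optimal summit was a median of 12649 bp from a 5′ end, against 24193 bp over all genes. A longer gene has more room for a summit in its body. Per Mb of gene body there were 36.3 summits, 7 in 0.193 Mb, against 10.4 over all genes. On autosomes the rate was 52.9 per Mb, against 9.75, and on X it was 0, against 13.6. Of the 7 summits, all of them autosomal, 2 were the ast-1 pair, whose peaks overlap at the GT repeat. The pooled list gave a median of 4.54 regions per 10 kb over the gene and 5 kb either side, against 2.08. Whether gene length or upstream space accounts for the shares above was not tested.

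**Figure D5:**
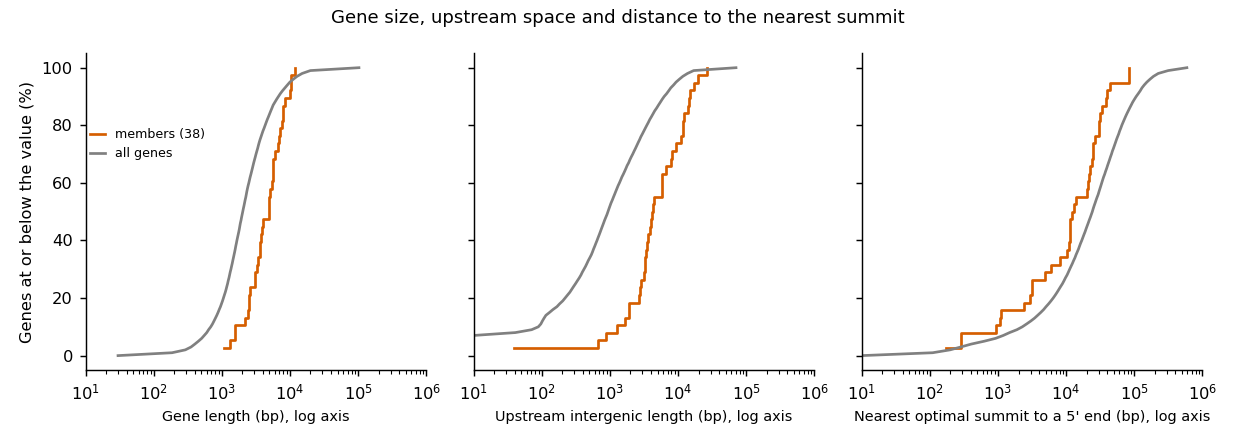
Cumulative share of genes (%) by gene length, upstream intergenic length and distance from a 5′ end to the nearest optimal summit, all in bp on log axes, for the 38 neuronal identity genes (orange, called members) and all protein-coding genes (grey); values under 10 bp are drawn at 10. The orange curves lie to the right of the grey ones for length and upstream space, with medians of 4880 and 4217 bp against 2027 and 936 bp, and to the left for the nearest summit over most of the range.

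Motifs were counted at the 14 summits. Each motif was read on either strand, up to 50 bp from a summit. CAATTAA, a motif of the HMX family, was at 0 of 14 summits, against 1.71% of all optimal summits, and TAATTA, a general homeodomain core, was at 1 (egl-46), against 3.64%. GAGAGA was at 1 summit (egl-46), against 24.9%, and GGGCGG at 2 (ttx-1 and the intronic zag-1 summit), against 9.51%. The E-box CAGGTG was at 1 (egl-46), against 2.91%, while the E-box CAGCTG and the GATA site TGATAA were at 0, against 3.84% and 2.03%. The egl-46 summit therefore held 3 of the 7 motifs, all in capitals above. G and C made up a median of 49.01% of bases at the 14 summits (34.7 to 54.5), against 49.5% at all optimal summits.

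Within 100 bp, CAATTAA was at 3 of 14 summits, against 3.84% of all. These were the nearer summit of unc-37, the farther summit of ast-1 and the intronic summit of zag-1. Of these, ast-1 and zag-1 are shown on the minus strand of WBcel235 with the motif in capitals, for comparison with the summit sequences above.
ast-1, chrII:4130196-4130232: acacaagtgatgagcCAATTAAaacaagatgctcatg
zag-1, chrIV:3860597-3860633: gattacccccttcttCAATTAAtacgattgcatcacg

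The promoter windows of the 38 genes, each of 1101 bp at the outermost 5′ end, were searched too. CAATTAA was in 16 of 38, against 29.6% of all protein-coding promoters of that length. GGGCGG was in 18 of 38, against 18.2% of all, and GAGAGA in 23 of 38, against 48.7%. TAATTA was in 17 of 38, against 44.8%, and TGATAA in 26 of 38, against 69.0%. CAGGTG was in 14 of 38, against 24.6%, and CAGCTG in 8 of 38, against 18.98%. The median G and C content of these windows was 34.7%, against 34.8% over all promoters. A match is a string of letters and no measure of binding.

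Genes that these factors are known to control were counted in the same way. In 61 genes of touch receptor, cholinergic, GABA, monoamine, AIY and sensory function, 2 had a promoter summit (3.28%, against 5.64% of all genes). Within 5 kb 7 had one (11.5%, against 16.8%). In the gene body 4 of 61 had one, against 2.70% of all genes. The 12 touch receptor genes had none in any window. Of the 12 cholinergic genes 1 had one, acr-12, an acetylcholine receptor subunit (chrX:13532571-13533040). Its signal was 245 in the pooled list (rank 1400), 203 in replicate 1 (rank 909) and 58.1 in replicate 2 (rank 4573), with the summit 47 bp upstream. Among 19 AIY and sensory genes 1 had a promoter summit, the guanylate cyclase gene gcy-33 of the BAG neurons (chrV:12001977-12002383). Its signal was 1191 in the pooled list (rank 22), 750 in replicate 1 (rank 24) and 440 in replicate 2 (rank 26), and the summit was near a tRNA gene and also in the window of cpr-9. The 9 GABA genes had 1 summit within 5 kb and the 9 monoamine genes had 2, with none in a promoter window.

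In 33 other neuronal transcription factor genes, 3 had a promoter summit (9.09%, against 5.64% of all genes). Within 5 kb 10 had one (30.3%, against 16.8%). In the gene body 3 of 33 had one, against 2.70% of all genes. The strongest was at daf-19, the RFX factor of ciliated neurons (chrII:10169337-10169854), with a signal of 621 in the pooled list (rank 171), 370 in replicate 1 (rank 210) and 267 in replicate 2 (rank 112). For the PBX homolog ceh-20 the signal was 305 in the pooled list (rank 856). It was 197 in replicate 1 (rank 969) and 109 in replicate 2 (rank 868). For ztf-11, a MYT1-type zinc finger gene, it was 219 in the pooled list (rank 1821) and 155 in replicate 1 (rank 1687). Replicate 2 had no summit within 100 bp of the one at ztf-11. In the 38 genes these counts were 4, 11 and 6, and the difference between the lists was not tested.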

How the data were processed

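ChIP-seq peak lists of 2 biological replicates of 1 group were used, in ce11. In every list the authors deposited, each peak has a signal, their score for it. Replicate and control alignments went into the lists and the optimal list was thresholded by the irreproducible discovery rate, per the deposited file descriptions. Not given in the sources used here are the peak caller, the aligner, the threshold and their versions. The ce10 lists were not used. Depth is unknown.

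Summits were placed on the Ensembl 115 annotation of WBcel235, and bases were read from the RefSeq genome (Python 3.11.15, pandas 2.3.3, numpy 2.4.6, scipy 1.17.1). A summit matched a replicate when 1 lay within 100 bp. The counting was tested on simulated data. With 1 group there was no test between conditions, so counts stand beside those of all genes.

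The 38 genes, the 94 genes of the other lists and the motifs were chosen with earlier results of these data known; the grouping by neuron type and the repeat search were added after the values were seen. Every gene with a summit in a window was described in full, with up to 4 genes of highest promoter signal per other list. Alternatives were the 962 strongest peaks, each replicate's own list, other distances and windows, the nearest gene, and leaving out summits near small RNA genes.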

Additional observations from a re-analysis of the deposited data

How the results depend on the processing

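Of 28 counts recomputed under another setting, 21 stayed within 1.5 times the reported value. The promoter count of 4 became 20 with all regions of the pooled list (33.3% of all genes) and 2 with the outermost 5′ end of each gene alone (5.10%), the second of these a setting added after the data were seen, and was 3 to 6 otherwise. The count of 11 genes within 5 kb became 6 at 2 kb (9.26% of all genes) and was 8 to 13 otherwise, with 8 in the 962 strongest peaks (9.56%) and 13 at 10 kb (27.5%). The gene-body count of 6 became 3 in the 962 strongest peaks (1.32% of all genes) and was 4 to 7 otherwise. The 8 summits found in both replicates became 5 at a distance of 50 bp, and 10 and 12 at 200 bp and with all regions of each replicate's list. With either replicate left out, the counts were 4 and 4 in promoters, 10 and 10 within 5 kb, and 5 to 7 in gene bodies. At 100 bp, CAATTAA was at 3 and GAGAGA at 2 of the 14 summits. No paired analysis was possible because the series holds 1 group. Depth is unknown, so a gene without a peak may have binding that these lists do not show.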
